A study of Mus musculus with 23 samples.

Results

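The fragments described here are the 601 stretches of mouse autosomal DNA between neighbouring CCCGGG sites that carry an LTR of the MaLR or ERVL families. They were taken from 173430 fragments in the deposited count table by position, length and repeat annotation and by no measured value. A fragment was kept on chromosomes 1 to 19, with a length from 21 bp to below 2000 bp, outside CpG islands, and with a listed LTR element whose name begins with MT, ORR1, MLT, MERVL or ERVL. Of 33929 fragments that met the position, length and island criteria, these make up 1.77%. The names begin with MT in 356 fragments, with ORR1 in 109, with MLT in 133, with MERVL in 1 and with ERVL in 2. By family, 549 are MaLR and 52 are ERVL (mostly MT2 and MLT2 elements). No kept fragment was annotated as MT2_Mm or MERVL-int, the full-length MERVL of mouse.

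MaLR elements are LTR retrotransposons without the genes needed for their own copying, which is thought to rely on proteins of the related ERVL family of endogenous retroviruses. Their LTRs contain promoters. In mouse, MT and ORR1 LTRs start many transcripts in oocytes and MERVL LTRs do so when the embryonic genome is first switched on, a programme that a small share of ES cells in culture also enters. MT and ORR1 elements are rodent-specific, whereas MLT elements are older, shared with other mammals and more diverged between copies. Such LTRs are commonly silenced by repressive histone marks and by DNA methylation.

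AIMS-seq, the assay used, reads methylation at a pair of CCCGGG sites at once. Digestion with SmaI, which methylation blocks, blunts the sites that lack the mark. XmaI ignores the mark, opens what SmaI left and gives sticky ends for the adaptors, and so a fragment is amplified and read only where both of its ends were methylated. A value is therefore a count of reads, given here as RPM, the usual read count scaled by all reads of that library in the table, and not a percent methylation. The groups were proliferating primary myoblasts at passage 8 to 10, the same cultures after 1, 2 and 4 days in differentiation medium, and myoblasts at passage 0, all from C57BL/6J mice, with cultures numbered 21, 26 and 27. Passage 0 was read for cultures 26 and 27 only. There were also whole muscle of adult mice (muscle 1 and 2 of a mixed 129Sv/C57BL/6J background, muscle 3 of C57BL/6J) and 2 libraries of freshly isolated muscle precursor cells of C57BL/6J mice, 1 taken 3 days after cardiotoxin injury and 1 from uninjured muscle. The remaining group was embryonic stem cells (ESC) of the lines CGR8 (129Sv), RD1 (129X1/SvJ) and E14Tg2 (129/Ola). Each group with replicates had n = 3 except passage 0. The labels name separate cultures, lines or muscles and say nothing further on replication, so p-values measure the spread between these libraries. Strain and cell type change together between the cultures and ESC and cannot be told apart, and muscle 1 and 2 carry 129Sv alleles that the cultures lack. The study also measured expression, which was not analysed here, and no statement is made on genes near a fragment.

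Some of these CCCGGG sites lie at recurrent places inside the element, and their sequences are shown first because they are the positions at which methylation was read. The 601 fragments held 612 such sites inside a listed element. The site followed by CTGG (CCCGGGCTGG along the element) occurred in 25 of them, 16 of 72 MTC sites and 3 of 3 MTA sites among them, at a median position of 163 in MTC. The site followed by TTCT (CCCGGGTTCT) occurred in 26, with 13 of them in MTC at a median position of 172 and 4 of 13 sites in MTB. The site followed by AAGA (CCCGGGAAGA) occurred in 12, of which 10 of 121 sites were in MTD at a median position of 37. Each sequence below runs 5′ to 3′ along the element, with 10 bases on either side of the site in capitals and coordinates in mm9.
MTA_Mm, chr8:122486496-122486521, plus strand: tggagccatcCCCGGGctggtagtct
MTC, chr13:44036112-44036137, plus strand: tgatttcatcCCCGGGctggtggttc
MTC, chr1:37319596-37319621, minus strand: taggactactCCCGGGctggtggttc
MTD, chr7:143718172-143718197, minus strand: cagtaccacgCCCGGGctggtaatcc
MTB_Mm, chr1:137612613-137612638, plus strand: ggtcggtagtCCCGGGttctataaga
MTC, chr4:46293777-46293802, minus strand: ggctggtggtCCCGGGttctataaga
MTC, chr11:70367316-70367341, minus strand: ggccggtagtCCCGGGttctgtaaga
MTD, chr5:53028422-53028447, minus strand: cctcgagtcaCCCGGGaagagggaac
MTD, chr17:48630591-48630616, plus strand: acttgacacaCCCGGGaagagggagc
The 4 bases after the site are shared by choice within each set. Beyond them, the MTB_Mm copy and the MTC copy on chromosome 4 both went on with ttctataaga, and the first 2 MTC copies with ctggtggttc. Counted on either strand, the CTGG, TTCT and AAGA continuations stood at 39, 29 and 12 of the 612 sites, which is 6.37%, 4.74% and 1.96%. Among 66656 sites of the other fragments under the same criteria, they stood at 807, 453 and 551, which is 1.21%, 0.680% and 0.827%. The 66656 are both end sites of every other fragment, inside a repeat or not, whereas the 612 all lie inside a listed element. The 2 sets of shares are therefore not like for like. The 3 continuations were chosen after the sites had been counted, and a match is a description of the annotation and carries no test.

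Both end sites of 4 fragments are given next, since each was read in every myoblast library and almost not at all in ESC. They are written on the plus strand of mm9 with the site in capitals.
ORR1D2 start, chr1:171554694-171554719: cagcaggctgCCCGGGaacagctaag
ORR1D2 end, chr1:171555274-171555299: agatgagaagCCCGGGtttatttcca
MLT1F1 start, chr9:42803555-42803580: tgtcctgcacCCCGGGacttactttc
MLT1F1 end, chr9:42804300-42804325: ctgaaagagcCCCGGGgctctgggct
MTD start, chr10:92878705-92878730: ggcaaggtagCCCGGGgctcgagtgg
MTD end, chr10:92879463-92879488: aaatcaggaaCCCGGGggcaggaact
MT2A start, chr19:22726139-22726164: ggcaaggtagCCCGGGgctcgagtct
MT2A end, chr19:22727409-22727434: gtgctggagtCCCGGGaaggttctag
All 8 sites are intact in the mm9 reference, which is a C57BL/6J genome. The sequence of these sites in the 129 strains was not analysed here. The start sites of the MTD and MT2A fragments, on different chromosomes, are alike but for their last bases.

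The third set is 3 whole fragments of 154 to 210 bp that had fewer reads in muscle than in myoblasts. They are printed on the plus strand with the 2 sites in capitals, so that the few CpGs between the sites can be seen.
MTEa, chr3:35970221-35970380: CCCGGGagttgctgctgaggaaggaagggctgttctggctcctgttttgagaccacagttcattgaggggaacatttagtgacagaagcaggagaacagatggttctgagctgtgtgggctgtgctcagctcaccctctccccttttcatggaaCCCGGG
ORR1E, chr16:90410188-90410402: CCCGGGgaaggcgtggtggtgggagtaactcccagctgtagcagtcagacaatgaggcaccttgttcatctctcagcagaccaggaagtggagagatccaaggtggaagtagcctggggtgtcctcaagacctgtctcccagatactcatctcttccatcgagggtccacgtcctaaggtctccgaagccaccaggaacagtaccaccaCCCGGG
MTE2a, chr4:139184941-139185156: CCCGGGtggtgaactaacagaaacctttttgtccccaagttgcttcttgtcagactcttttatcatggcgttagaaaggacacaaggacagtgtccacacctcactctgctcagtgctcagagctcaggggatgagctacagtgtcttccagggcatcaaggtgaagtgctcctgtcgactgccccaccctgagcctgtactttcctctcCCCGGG
Between its sites, the MTEa fragment holds 0 CpGs, the ORR1E fragment 4 and the MTE2a fragment 2.

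The fragments were long and poor in CpG. Their median length was 988 bp (27 to 1995), against 238 bp for the 33328 other fragments under the same criteria and 164 bp for the 769 fragments with an IAP element, the young LTR family that keeps high methylation in most mouse tissues. They held 1.11 CpGs per 100 bp at the median, against 3.33 in IAP fragments. By GENCODE M1, 52 overlapped a promoter window, 45 an exon, 190 an intron and 314 no gene. The named element reached the left end of the fragment in 292 cases, the right end in 286 and both in 20, and 145 fragments listed more than 1 element, so one end of a fragment usually lies outside the LTR. Both 36-base ends, read from mm9, were unique among the ends of all 173430 fragments in 543 of 601 fragments (90.3%), against 20.2% of IAP fragments and 94.9% of fragments without a repeat. The share was lowest for ORR1A, at 74.1%, and was 95.8% for MTD and 94.1% for MLT1. No read was found in any library for 18 fragments (3.00%), against 40.6% of IAP fragments and 30.9% of the others.

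Summed over the 601 fragments, the reads made up a similar share of every library. The libraries held 6237851 to 14696855 reads each (for ESC line CGR8, 2 technical replicates were added together), and 3.24 to 4.02% of the reads came from these fragments. The sum was 36292 ± 1831 RPM in myoblasts, 35873 ± 1646 RPM at day 1, 38706 ± 1091 RPM at day 2, 36121 ± 3872 RPM at day 4, 34763 ± 1568 RPM in muscle and 34169 ± 619.9 RPM in ESC (SD, n = 3 each). In the precursors it was 35086 RPM after injury and 33854 RPM in uninjured muscle, and at passage 0 it was 36518 RPM in culture 26 and 40208 RPM in culture 27. The ranges of myoblasts, day 1, day 4 and muscle each overlapped that of ESC, and the day 4 libraries alone spanned 32394 to 40122 RPM. Day 2 had the highest mean, and its libraries (37450.2 to 39422 RPM) lay above all 3 ESC lines (33549 to 34789 RPM).

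**Figure D1:**
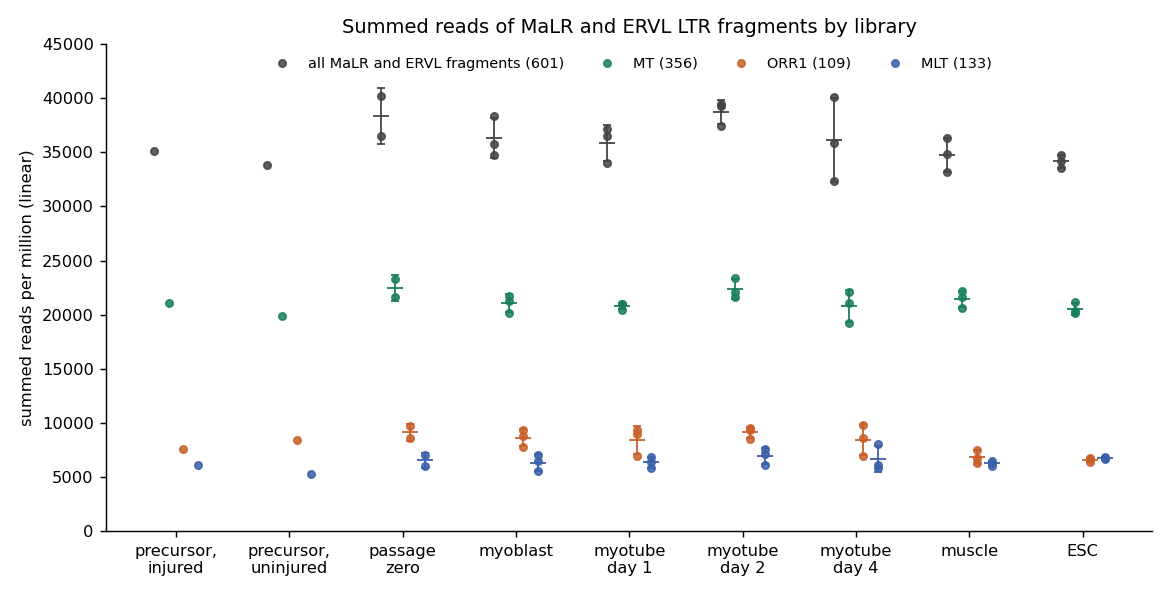
RPM (linear axis from 0) summed over all 601 fragments and over the MT, ORR1 and MLT fragments, with 1 point per library, a bar at the group mean and whiskers of 1 SD where a group has more than 1 library. The sum over all fragments lies between 32394 and 40208 RPM in every library, and the ORR1 points of the 3 myoblast libraries lie above those of the 3 ESC lines.

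Among the 3 large name groups, MT, ORR1 and MLT, the sum of ORR1 had the ratio between myoblasts and ESC farthest from 1. ORR1 elements are rodent MaLR LTRs, and their 109 fragments summed to 9329, 7807 and 8808 RPM in myoblast cultures 21, 27 and 26, against 6706, 6419 and 6755 RPM in CGR8, RD1 and E14Tg2. The myoblast mean was 1.30 times that of ESC, with no overlap. At day 4 the sum was 9798, 6947 and 8633 RPM, 1.28 times that of ESC, and in muscle it was 6773, 6329 and 7546 RPM, 0.796 times that of myoblasts, again without overlap between the 2 groups compared. Muscle and ESC overlapped. Much of the muscle difference came from 1 fragment, the ORR1C1 fragment described below. Without it, muscle had 6593, 6123 and 7079 RPM and myoblasts had 8085, 6592 and 7111 RPM, a ratio of 0.908, and these groups overlapped. Myoblasts and day 4 stayed above ESC without it, at 1.23 times each, with no overlap, and muscle was then 1.11 times ESC, also with no overlap. The 133 MLT fragments summed to 6295 ± 208 RPM in muscle and 6765 ± 69.1 RPM in ESC (SD, n = 3 each), and the 356 MT fragments to 21486 ± 755 RPM in muscle, 21079 ± 826 RPM in myoblasts and 20544 ± 532 RPM in ESC. The 2 ERVL-named fragments summed to 86.0, 83.5 and 108 RPM in muscle, against 148, 112 and 188 RPM in myoblasts and 158, 202 and 211 RPM in ESC. Muscle was 0.619 times myoblasts and 0.486 times ESC, with no overlap in either. These ratios depend on scaling by library totals. In the main fragment tests described below, 0 of the 2 were called in either comparison. Their median log2 fold change there was 0.14 against myoblasts and -0.27 against ESC. With fragment length corrected it was -0.39 and -0.72, and 1 of the 2 was called lower against ESC. No p is given for these sums, since the members were grouped with earlier results known, and 3 libraries against 3 cannot reach an exact p below 0.1.

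Behind the even sums, single fragments covered a wide range. Averaged over the 9 groups, the median fragment had 20.7 RPM, the highest 1107 RPM, and 106 fragments were under 1 RPM while 101 were over 100 RPM. The 10 most read fragments held 17.3% of the family's reads and the top 100 held 68.2%. The most read one was an ORR1C1 fragment (chr7:144221296-144221688) in an intron of Mgmt, a gene for a DNA repair protein that removes alkyl groups from guanine. It had 179, 207 and 466 RPM in muscle, 1244, 1215 and 1696 RPM in myoblasts and 629.5, 748 and 729 RPM in ESC. Myoblasts were above ESC and ESC above muscle in every library. An exonic MTE2b fragment of Tmem130 (chr5:145504547-145504881) had 95.8, 128 and 259 RPM in muscle, 1004, 688 and 836 RPM in myoblasts and 551, 373 and 405 RPM in ESC. The other 3 of the 5 most read fragments were ORR1B2 on chromosome 9 with 857, 412 and 1085 RPM in myoblasts and 577, 346 and 415 RPM in ESC, MT2A on chromosome 5 with 1142, 454 and 872 RPM in myoblasts and 593, 564 and 502 RPM in ESC, and ORR1E on chromosome 18 with 715, 481 and 552 RPM in myoblasts and 357, 321 and 307 RPM in ESC.

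Myoblasts against ESC asked how methylated sites differ between a lineage-committed precursor and pluripotent cells. ORR1 fragments were called higher more often than lower and MLT fragments lower more often than higher. Each fragment was tested on its counts with edgeR's quasi-likelihood test over all fragments of the table, and a call is a Benjamini-Hochberg adjusted p under 0.05. Of 601 fragments, 496 passed the low-count filter, 50 were called higher in myoblasts and 58 lower. Over all fragments tested, 8.22% were called higher and 11.7% lower, so the shares here (10.1% and 11.7%) lie near the background. Fragments under the same position, length and island criteria had 11.0% higher and 8.88% lower in the same fit. Libraries did not overlap for 48 of the 50 and for all 58, nor for 112 of the 388 fragments of the family that were not called. No share over all fragments tested is given beside such counts, here or below, so they describe the family alone. By prefix, 13 of 91 ORR1 fragments were higher and 4 lower, 35 of 294 MT fragments were higher and 38 lower, and 2 of 108 MLT fragments were higher and 16 lower. For ORR1 this is 14.3% and 4.40%, near the 13.8% and 2.90% of IAP fragments. LTR fragments outside this family and IAP had 14.2% and 5.37%, and LINE fragments 20.8% and 5.27%. The lean to higher calls was thus not particular to ORR1. Fragments without a repeat leaned to lower calls as MLT did, with 7.75% higher and 10.9% lower. Within MT, 5 of 13 MTB fragments were higher and 0 lower, and 8 of 63 MTC fragments were higher and 14 lower. The count of lower fragments depended on single libraries, and was 15 without myoblast culture 26, 25 without CGR8, 36 without RD1 and 29 without E14Tg2.

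The largest folds were in fragments that ESC hardly read. An intergenic ORR1D2 fragment of 580 bp (chr1:171554707-171555286), whose end sites are printed above, had 211, 347 and 345 RPM in myoblasts and 0.653, 0.0992 and 0.239 RPM in ESC (log2 fold change 9.69 ± 0.83 SE, adjusted p = 0.000109). An MLT1F1 fragment (chr9:42803568-42804312) in an intron of Arhgef12, which encodes an exchange factor for RhoA, had 218, 237 and 212 RPM in myoblasts and 0.857, 0.198 and 0 RPM in ESC (log2 fold change 9.10 ± 1.04 SE, adjusted p = 0.000284). An intergenic MTD fragment (chr10:92878718-92879475) had 219, 179 and 173 RPM in myoblasts and 0.490, 0 and 0.239 RPM in ESC (log2 fold change 9.51 ± 0.96 SE, adjusted p = 0.000176). In these 3 fragments the myoblast libraries were close to one another and every ESC line was under 1 RPM. A pair of MT2 fragments, LTRs of the ERVL family, showed the same split. The MT2A fragment in an intron of Trpm3, which encodes a cation channel (chr19:22726152-22727421), had 48.8, 70.7 and 69.8 RPM in myoblasts and 0.245, 0 and 0 RPM in ESC (log2 fold change 9.01 ± 0.95 SE, adjusted p = 0.00021). The MT2B2 fragment (chr17:87547108-87548996) had 33.6, 54.1 and 29.7 RPM in myoblasts and 0.245, 0.198 and 0.119 RPM in ESC (log2 fold change 7.65 ± 0.63 SE, adjusted p = 0.000103).

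Of the fragments named for this comparison as lower in myoblasts, all but 1 were still read there at 0.996 RPM or more in every library. An MTE2a fragment of Prex1, which encodes an exchange factor for Rac (chr2:166462131-166462615, intron), had 21.9, 54.9 and 88.6 RPM in myoblasts and 638, 572 and 657 RPM in ESC (log2 fold change -3.35 ± 0.56 SE, adjusted p = 0.00223), with every myoblast library far under every ESC line. It stayed low at day 4, with 23.6, 102 and 66.2 RPM, and in muscle, with 78.3, 124 and 89.8 RPM. An MTD fragment (chr10:83436413-83437444) had 3.71, 16.7 and 13.4 RPM in myoblasts and 103, 121 and 115 RPM in ESC (log2 fold change -3.23 ± 0.53 SE, adjusted p = 0.00191). An MLT1C fragment of Hsd17b2, a gene for a steroid-converting dehydrogenase (chr8:120240103-120241083), had 0.996, 12.6 and 5.86 RPM in myoblasts and 69.3, 71.6 and 85.4 RPM in ESC (log2 fold change -3.52 ± 0.69 SE, adjusted p = 0.00573). In each of these 3 fragments culture 21 was the lowest myoblast library. An MTC fragment (chr5:74144071-74144696) had 3.26, 32.1 and 22.1 RPM in myoblasts and 243, 201 and 163 RPM in ESC (log2 fold change -3.39 ± 0.69 SE, adjusted p = 0.00706), and an ORR1E fragment (chr4:152981722-152983011) had 1.63, 4.13 and 1.82 RPM in myoblasts and 10.6, 15.1 and 18.6 RPM in ESC (log2 fold change -2.39 ± 0.50 SE, adjusted p = 0.00796). These groups did not overlap. The exception was MLT1J (chr7:74999199-75000561), with 0.453, 0.517 and 0.130 RPM in myoblasts and 32.3, 37.3 and 48.7 RPM in ESC (log2 fold change -6.46 ± 0.64 SE, adjusted p = 0.000161). An MTEa fragment (chr13:71236678-71237327) had 1.36, 19.7 and 11.7 RPM in myoblasts and 142, 106 and 97.1 RPM in ESC (log2 fold change -3.41 ± 0.75 SE, adjusted p = 0.0107), a call that was lost without CGR8 (adjusted p = 0.0529) and without myoblast culture 26 (adjusted p = 0.0689).

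The fragments near 0 in one of the 2 groups were counted with limits of 10 and 1 RPM, which were set after values had been seen, so the counts are a description. Read at 10 RPM or more in every myoblast library and under 1 RPM in every ESC line were 21 fragments, or 7.14% of the 294 that reached 10 RPM in every myoblast library. Of 6727 other fragments under the same criteria that did so, 359 were under 1 RPM in every ESC line, or 5.34%. All 21 were among the 50 called higher, and they were of MT (13), ORR1 (7) and MLT (1) names. They were not special to myoblasts: in each of the 19 libraries outside ESC, all 21 had at least 1.11 RPM. The highest value in any ESC line was 0.857 RPM. The limits themselves set the ESC and myoblast values apart, so only the other groups add to the description. The median over the 21 was 31.9, 57.3 and 29.7 RPM in myoblast cultures 21, 27 and 26, and 0.245, 0 and 0 RPM in CGR8, RD1 and E14Tg2. In muscle it was 25.1 and 18.1 RPM in the 2 libraries of mixed 129Sv/C57BL/6J background and 49.0 RPM in the C57BL/6J library. Muscle 1 was below muscle 3 in 17 of the 21 fragments and muscle 2 in 19. The median ratio to muscle 3 was 0.733 for muscle 1 and 0.526 for muscle 2, against 0.895 and 0.817 over 273 other fragments of the family that reached 10 RPM in all muscles. The 21 were not chosen on muscle values, and 16, 15 and 18 of them reached 10 RPM in muscle 1, 2 and 3. The 273 thus leave out fragments low in any muscle, and no conclusion is drawn from the contrast in ratios. The part of strain in these values was not tested, and with ESC it cannot be told apart from cell type. No 36-base end of the 21 recurred as the end of another fragment of the table, against 12 of 273 other fragments of the family at 10 RPM or more in every myoblast library (4.40%).

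The opposite class held 3 fragments, or 0.888% of the 338 that reached 10 RPM in every ESC line, against 23 of 7997 others (0.288%). All 3 were MLT elements. They were MLT1J on chromosome 7, MLT2B3 on chromosome 2 and MLT2B4 on chromosome 14. The MLT2B4 fragment (chr14:117280851-117282176) had 21.9, 27.8 and 21.9 RPM in the 3 ESC lines and no read in any of the 3 day 4 libraries. The MLT2B3 fragment averaged 0.113 RPM in myoblasts and 12.6 RPM in ESC, and among the other libraries only muscle 3, the C57BL/6J one, reached 1 RPM, with 6.17 RPM, against 0 RPM in muscle 1 and 0 RPM in muscle 2.

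**Figure D2:**
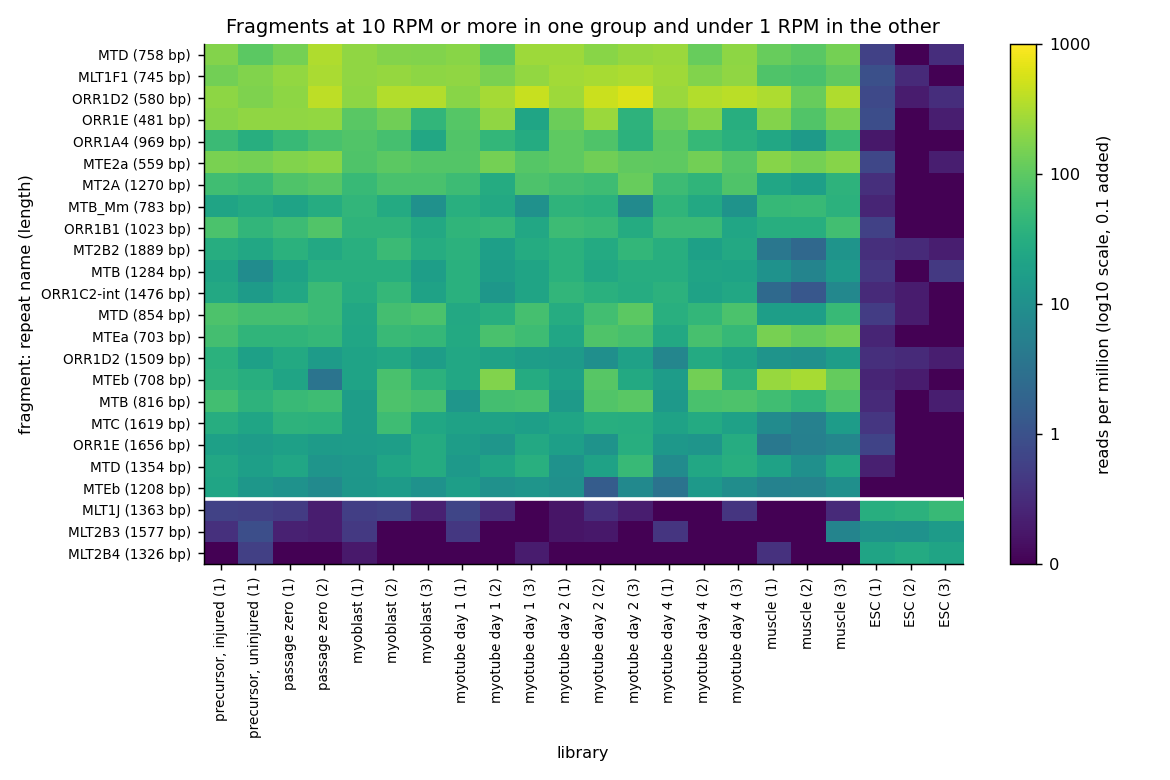
RPM (colour, log10 scale with 0.1 added) of the 24 fragments that reached 10 RPM in all libraries of one group and stayed under 1 RPM in all of the other, for myoblasts and ESC, with 1 column per library and 1 line per fragment. The 21 fragments above the white line are read in every library outside ESC, and the 3 MLT fragments below it are read in the ESC columns and, for MLT2B3, in muscle 3.

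Day 4 myotubes were set against the same ESC libraries as the myoblasts, so both comparisons share them. Of 498 fragments that passed the filter, 41 were called higher at day 4 and 5 lower, against 5.42% and 5.93% of all fragments tested, so 8.23% of the family was higher and 1.00% lower. Fragments under the same criteria leaned the same way, with 7.46% higher and 0.809% lower, close to the shares of the family. Libraries did not overlap for any of the called fragments, nor for 95 of the 452 that were not called. The higher calls were 27 of 296 MT, 12 of 91 ORR1 and 2 of 108 MLT fragments, and the lower ones 2 MT and 3 MLT fragments. The number of lower calls was 29 without culture 27 at day 4, 12 without culture 21, 2 without culture 26 and 2 without E14Tg2, and without culture 21 there were 66 higher ones. With fragment length corrected, as described for muscle, 41 were higher and 7 lower, beside 6.58% and 0.807% of all fragments tested, and 19 were lower when the replicate number was added as a block. An intergenic ORR1A4 fragment (chr10:107398468-107399436) had 97.4, 48.6 and 35.0 RPM at day 4 and 0.0816, 0 and 0 RPM in ESC, which is 2235 reads against 2 and a ratio of 1338 (exact 95% interval 369.9 to 11053). The ORR1D2 fragment on chromosome 1 had 246, 350.1 and 381 RPM at day 4 (log2 fold change 10.18 ± 1.00 SE, adjusted p = 0.00159). MLT1F1 in Arhgef12 had 266, 172 and 216 RPM (log2 fold change 9.58 ± 1.35 SE, adjusted p = 0.00255), and the intergenic MTD fragment had 254, 119 and 208 RPM (log2 fold change 10.02 ± 1.29 SE, adjusted p = 0.00209). Among the lower fragments, MLT2B4 had 0 reads at day 4 and 1000 in ESC, which makes it at least 278-fold lower against a floor of 3 reads over the day 4 libraries. MTE2a of Prex1 (log2 fold change -2.91 ± 0.58 SE, adjusted p = 0.0111) and the MTD fragment at chr10:83436413-83437444 (log2 fold change -2.35 ± 0.59 SE, adjusted p = 0.0355) were lower too. The MTE2a call was lost without E14Tg2 (adjusted p = 0.0538) and without culture 26 (adjusted p = 0.0709). The MTD call was lost without any of the 3 ESC lines (adjusted p = 0.106 to 0.130) and without culture 26 (adjusted p = 0.148).

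Muscle against ESC gave the most calls. Whole muscle holds several cell types, and a change in their shares cannot be told apart from a change within cells. Of 492 fragments that passed the filter, 145 were called higher in muscle and 85 lower, which is 29.5% and 17.3%. Over all fragments tested, 24.4% were higher and 34.6% lower, but over those under the same criteria 31.3% were higher and 19.4% lower, near the shares of the family. Libraries did not overlap for 139 of the 145 and for all 85, nor for 78 of the 262 that were not called. MT fragments were higher in 93 of 291 cases and lower in 39, ORR1 fragments in 27 and 18 of 91, and MLT fragments in 25 and 27 of 107. The split between higher and lower depended on scaling: TMM places the median log2 fold change of all fragments at -0.34 and that of the family at 0.28, whereas library totals shift all fragments to -1.14 and give 86 higher and 179 lower fragments of the family. Directions in this comparison are therefore relative to that shift. The lower count was 43 without muscle 1, 56 without muscle 2 and 56 without E14Tg2.

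The fragments with the largest folds were read well in muscle and almost absent from ESC. An intergenic MTEb fragment (chr15:38213742-38214449) had 238, 303 and 115 RPM in muscle and 0.163, 0.0992 and 0 RPM in ESC (log2 fold change 11.62 ± 0.85 SE, adjusted p = 9.89e-06). An intergenic MTEa fragment (chr12:52639286-52639988) had 151, 112 and 141 RPM in muscle and 0.163, 0 and 0 RPM in ESC (log2 fold change 11.18 ± 0.79 SE, adjusted p = 9.33e-06). An ORR1D1 fragment of Klhl32 (chr4:24704135-24704939) had 72.1, 19.7 and 69.1 RPM in muscle and 0.122, 0 and 0 RPM in ESC, a ratio of 793 (exact 95% interval 271 to 3848) from 1651 reads against 3. Muscle 2, of mixed background, was the lowest of its group. An ORR1D2 fragment of Ccdc88c, a regulator of Wnt signalling (chr12:102247539-102248522), had 16.6, 15.4 and 15.3 RPM in muscle and 0.0408, 0.0992 and 0.119 RPM in ESC, a ratio of 226 (exact 95% interval 76.9 to 1101) from 471 reads against 3. ORR1D2 on chromosome 1 (log2 fold change 10.06 ± 0.81 SE, adjusted p = 1.37e-05) and MLT1F1 in Arhgef12 (log2 fold change 8.28 ± 0.87 SE, adjusted p = 5.63e-05), described above for myoblasts, were called higher in muscle as well.

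The MERVL fragment was lower in muscle. It is the only one of this name among the 601, a piece of MERVL_2A-int, the internal part of an ERVL provirus that in intact copies encodes the retroviral proteins (chr3:31108369-31109802, 1434 bp, in an intron of Slc7a14). It had 6.66, 5.57 and 8.66 RPM in muscle, 58.1, 53.9 and 73.7 RPM in myoblasts and 26.6, 44.1 and 56.8 RPM in ESC. Every muscle library was below every myoblast library and every ESC line, and the muscle mean in RPM was 0.164 times that of ESC and 0.113 times that of myoblasts. The log2 fold change was -1.77 ± 0.37 SE against ESC (adjusted p = 0.00276; -1.10 with length corrected) and -2.67 ± 0.48 SE against myoblasts (adjusted p = 0.012). The myotube libraries were spread widely, with 61.8, 11.0 and 70.1 RPM at day 1, 38.4, 26.1 and 92.6 RPM at day 2 and 29.1, 17.3 and 70.8 RPM at day 4, and culture 27 was the lowest at each of these times.

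Several further fragments fell in muscle against ESC. MLT1J on chromosome 7 had 2 reads in muscle and 1576 in ESC, 0, 0 and 0.199 RPM against 32.3, 37.3 and 48.7 RPM, a ratio of 547 (exact 95% interval 151 to 4521) in favour of ESC. An ORR1E fragment (chr8:123912978-123913695) had 2.13, 0.780 and 2.29 RPM in muscle and 22.9, 30.4 and 121 RPM in ESC (log2 fold change -4.18 ± 0.68 SE, adjusted p = 0.000751). An MTA_Mm fragment, from the youngest MT subfamily (chr8:122486509-122487085), had 38.1, 37.1 and 56.9 RPM in muscle, 197, 127 and 172 RPM in myoblasts and 207, 213 and 235 RPM in ESC (log2 fold change -1.51 ± 0.32 SE, adjusted p = 0.00311 for muscle against ESC). It is 1 of only 3 MTA fragments kept, and its start site is the MTA_Mm sequence printed above. With length corrected its log2 fold change was -2.43. An MTD fragment of Fam129a (chr1:153430567-153432021; log2 fold change -2.63 ± 0.49 SE, adjusted p = 0.00149), MTE2a of Prex1 (log2 fold change -1.85 ± 0.37 SE, adjusted p = 0.00225), an ORR1A2 fragment (chr1:75588474-75589648; log2 fold change -1.57 ± 0.34 SE, adjusted p = 0.00315) and an ORR1D1 fragment of Msrb3, a gene for a methionine sulfoxide reductase (chr10:120321691-120322822; log2 fold change -1.77 ± 0.44 SE, adjusted p = 0.00648), were lower without overlap. With length corrected the log2 fold change of the Prex1 fragment was -2.82 and that of the Fam129a fragment -1.96. The ORR1D1 call was lost without muscle 1, at an adjusted p of 0.0524, and 1 end of that fragment recurs in 44 other fragments.

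Fragment length moved with the muscle results. The 145 fragments higher in muscle than ESC had a median length of 745 bp and the 85 lower ones 1467 bp. The median log2 fold change against ESC was 0.17 under 300 bp, 0.84 from 300 bp, 0.85 from 600 bp, 0.32 from 900 bp, -0.41 from 1200 bp and -0.88 from 1500 bp, each class ending where the next begins. Against myoblasts the same classes gave -0.12, 0.60, 0.67, 0.22, -0.39 and -0.78. Fragments of 1200 bp or more took 5.11% of the family's reads in muscle (4.45 to 6.32), 10.6% in myoblasts (8.64 to 13.4) and 12.2% in ESC (9.31 to 14.3). Muscle libraries held fewer reads of long fragments, and over all fragments under the same criteria the shares were 3.63%, 7.36% and 9.65%. A fit chosen after seeing this, which subtracts from each library a smooth trend of level on length, brought the class medians against ESC to between -0.55 and 0.20. With it, 113 fragments were higher in muscle than ESC and 69 lower, beside 23.8% and 18.5% of all fragments tested, which is 23.0% and 14.02% of the family. Against myoblasts, 60 were higher and 65 lower, beside 12.2% and 13.1% of all. The part of length in any single fragment's result was not tested. Named fragments kept their direction in this fit. Most of them were chosen for a small adjusted p or a large fold in the main fit, which favours this, so no conclusion is drawn from it.

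**Figure D3:**
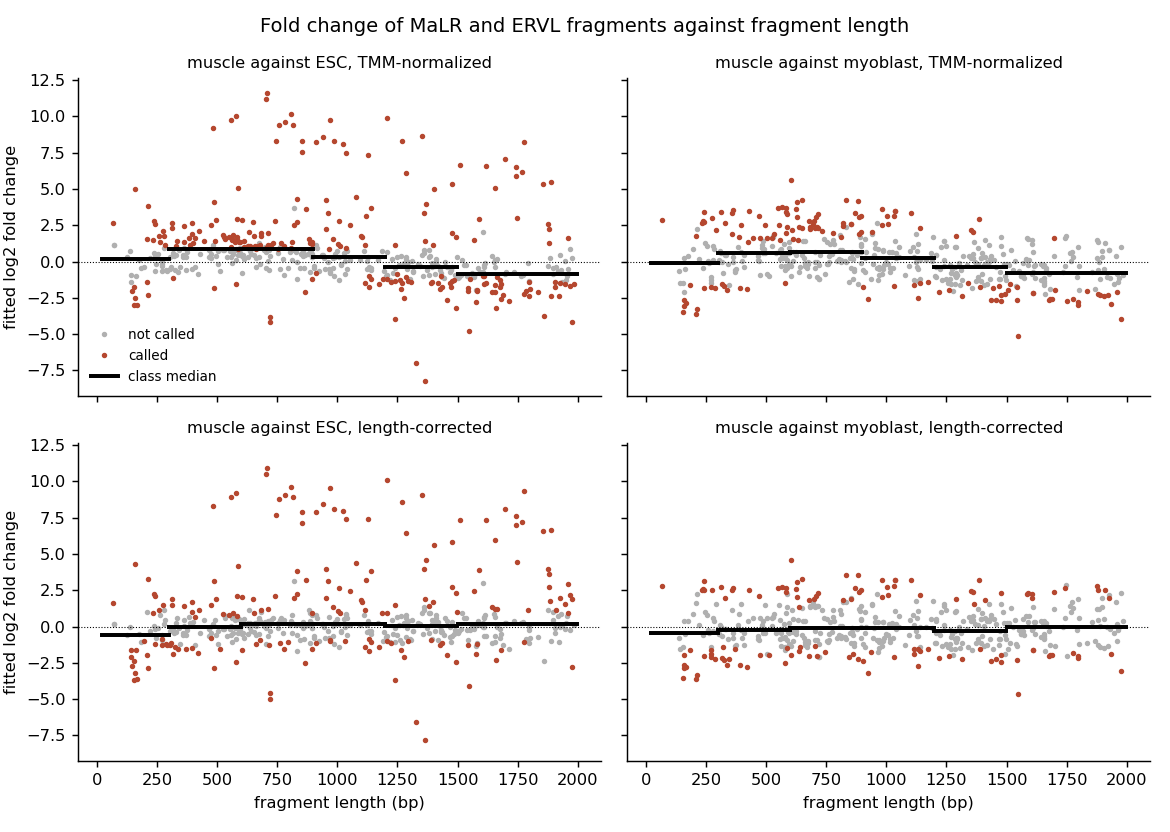
Fitted log2 fold change of each tested MaLR and ERVL fragment (vertical axis) against its length in bp (horizontal axis), for muscle against ESC and muscle against myoblast, with TMM scaling above and the length-corrected fit below. Red points were called, grey points were not, and black bars are medians of the 6 length classes, which in the upper panels lie above 0 from 300 bp and below 0 from 1200 bp on.

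Muscle against myoblasts set mature tissue beside cultured precursors. Of 483 fragments that passed the filter, 82 were called higher in muscle and 58 lower, which is 17.0% and 12.0%, against 13.7% and 17.4% of all fragments tested. Under the same criteria the shares were 16.9% and 11.2%, near those of the family. Libraries did not overlap for any of the called fragments, nor for 116 of the 343 that were not called. Among MTC fragments, 16 of 63 were higher and 4 lower, with 12 higher and 2 lower in the length-corrected fit. MT fragments as a whole were higher in 52 of 286 cases and lower in 30, but 35 and 35 with length corrected. ORR1 fragments were higher in 12 of 91 and lower in 13, and MLT fragments in 18 and 14 of 103. Without muscle 1 or without muscle 2, both of mixed background, edgeR called 0 fragments of the family and 0 over all fragments, whereas without muscle 3 it called 81 higher and 41 lower. Without myoblast culture 26 there were 37 higher and 26 lower, and without culture 27 there were 59 and 29. The highest adjusted p of each named fragment over the fits without 1 library lay between 0.0601 and 0.0933.

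Among the higher fragments, 2 were MTC-int pieces, the internal part of the MTC elements. The one at chr1:31946495-31947099 had 492, 276 and 260.5 RPM in muscle and 2.63, 20.3 and 10.4 RPM in myoblasts (log2 fold change 5.63 ± 0.76 SE, adjusted p = 0.012), and the one at chr11:118962395-118963024 had 310.3, 622 and 196 RPM in muscle and 3.44, 53.0 and 51.3 RPM in myoblasts (log2 fold change 4.12 ± 0.94 SE, adjusted p = 0.0154). In both, myoblast culture 21 was far below the other cultures. MLT2C2 (chr12:107422970-107423533) had 531, 516 and 387 RPM in muscle and 37.0, 94.2 and 34.5 RPM in myoblasts (log2 fold change 3.75 ± 0.54 SE, adjusted p = 0.012). MLT1A of Camta1, a calmodulin-binding transcription activator (chr4:150992948-150993778), had 81.3, 81.6 and 40.01 RPM in muscle and 0.634, 12.8 and 4.69 RPM in myoblasts (log2 fold change 4.23 ± 0.91 SE, adjusted p = 0.0136). MTEa at chr13:71236678-71237327, which was lower in myoblasts than ESC, had 118, 202 and 52.1 RPM in muscle and 1.36, 19.7 and 11.7 RPM in myoblasts (log2 fold change 4.27 ± 0.94 SE, adjusted p = 0.0144). An ORR1E fragment on chromosome 18 was also higher (log2 fold change 2.38 ± 0.45 SE, adjusted p = 0.0121). In the first 5 of these fragments muscle 3, the C57BL/6J library, was the lowest of the muscles. With length corrected the log2 fold changes were 4.603 and 3.08 for the MTC-int fragments, 2.70 for MLT2C2, 3.52 for MLT1A, 3.25 for MTEa and 1.36 for ORR1E. Without myoblast culture 26 the calls of MLT1A (adjusted p = 0.0526) and MTEa (adjusted p = 0.0509) were lost too. In ESC the 2 MTC-int fragments had 104, 71.3 and 66.6 RPM and 378, 301 and 302 RPM, above the myoblasts, so the myoblasts were the low group for both.

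The 3 short fragments printed above were all lower in muscle. ORR1E of Hunk, a gene for a protein kinase, had 4.07, 4.91 and 7.27 RPM in muscle, 113, 51.4 and 95.5 RPM in myoblasts and 35.2, 17.5 and 19.7 RPM in ESC (log2 fold change -3.58 ± 0.59 SE, adjusted p = 0.012 for muscle against myoblasts). MTE2a of Aldh4a1, which encodes a mitochondrial enzyme of proline breakdown, had 5.55, 5.35 and 6.47 RPM in muscle, 97.2, 36.7 and 92.8 RPM in myoblasts and 66.1, 40.7 and 37.6 RPM in ESC (log2 fold change -3.27 ± 0.61 SE, adjusted p = 0.0121). MTEa of Acad9, an acyl-CoA dehydrogenase gene, had 0.555, 0.334 and 0.995 RPM in muscle, 10.4, 7.86 and 10.2 RPM in myoblasts and 8.32, 12.4 and 5.61 RPM in ESC (log2 fold change -3.46 ± 0.63 SE, adjusted p = 0.012). In each, all 3 muscle libraries lay below all 3 myoblast libraries and all 3 ESC lines. MLT1H2 of Inhbc, which encodes an inhibin subunit (chr10:126805462-126807008), had 2 reads in muscle and 113 in myoblasts, a ratio of 59.3 (exact 95% interval 16.1 to 496) in favour of myoblasts. MLT1F2 (chr5:22917578-22918501; log2 fold change -2.59 ± 0.55 SE, adjusted p = 0.0136, and -3.20 with length corrected) and the ORR1D1 fragment of Msrb3 (log2 fold change -2.52 ± 0.55 SE, adjusted p = 0.0141) were lower as well, and the Msrb3 fragment had 7.58, 5.91 and 20.9 RPM in muscle and 94.5, 98.1 and 68.5 RPM in myoblasts.

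**Figure D4:**
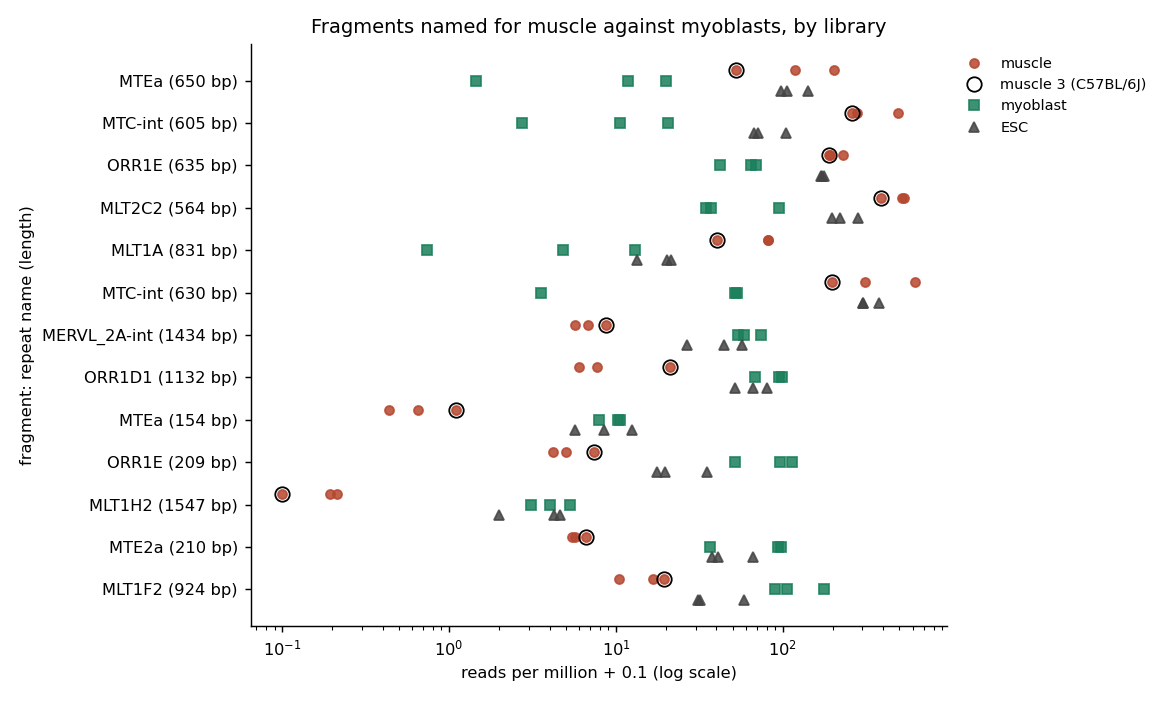
RPM plus 0.1 (log axis) of the 13 fragments named for muscle against myoblasts, with 1 point per library for muscle, myoblast and ESC and a ring around muscle 3, the C57BL/6J library. In the upper 6 fragments all muscle points lie to the right of the myoblast points, in the lower 7 they lie to the left, and muscle 3 lies on the same side as muscle 1 and 2 in all 13. The 13 were chosen from called fragments of this comparison, in none of which the groups overlapped. These sides thus follow from the choice and carry no information on strain.

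Differentiation to day 4 gave no called fragment. Of 488 tested for day 4 myotubes against myoblasts, edgeR called 0 higher and 0 lower, as it did over all 22438 fragments (0%), and DESeq2 also called 0. With the culture as a block the counts were 0 and 0, and 1 fragment was higher when length was corrected as well. At an unadjusted p under 0.05 there were 2 of the 488, and 83 of the 22438. Levels varied more by culture label than by stage. The label coincides with the replicate number, so origin cannot be told apart from anything else that same-numbered libraries share. In the 12 libraries of cultures 21, 26 and 27, on log2(RPM + 1) and for the 370 fragments that averaged 10 RPM or more, a median of 67.6% of the variance lay between cultures and 11.4% between stages, and 308 fragments (83.2%) varied more by culture. For 9184 other fragments the medians were 62.6% and 11.3%, with 87.0% varying more by culture.

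Culture 27 stood apart from the other cultures in the fragments that separate muscle from myoblasts, though not only in these. In the 82 fragments called higher in muscle, the median was 9.46, 34.0 and 19.5 RPM in myoblasts of cultures 21, 27 and 26, 9.25, 78.4 and 15.9 RPM at day 1, 8.58, 37.9 and 17.5 RPM at day 2 and 7.54, 75.2 and 22.8 RPM at day 4. It was 98.5, 110.5 and 80.0 RPM in muscle and 66.9, 66.6 and 66.6 RPM in ESC. Culture 27 was thus the highest in myoblasts at passage 8 to 10 and at days 1, 2 and 4, and nearest to muscle at days 1 and 4. At passage 0 it was the lower of the 2 cultures read. In the 58 fragments called lower, the medians were 31.7, 42.1 and 40.6 RPM in myoblasts, 35.3, 13.6 and 38.5 RPM at day 1, 35.4, 23.3 and 48.0 RPM at day 2 and 28.8, 19.0 and 41.6 RPM at day 4, and 3.98, 3.01 and 9.16 RPM in muscle. Culture 27 was the lowest at days 1, 2 and 4. Muscle and myoblast values chose these fragments and carry no support here, and the myotube values come from single libraries of a culture, so they are a description.

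Freshly isolated precursors and passage 0 were set beside the late cultures. In the 82 fragments higher in muscle than myoblasts, the median was 48.6 RPM in precursors of injured muscle and 34.9 RPM in those of uninjured muscle. Both lay above the 3 myoblast medians and below those of muscle. The 82 were chosen for high values in muscle and low values in these myoblast libraries. ESC, at 66.9, 66.6 and 66.6 RPM, lay between them too. The position of the precursors can therefore follow from the choice, and no conclusion is drawn from it. Of the 60 fragments higher with length corrected, 59 were among the 483 tested with TMM scaling. In these 59, the injured precursors had 29.9 RPM and the uninjured ones 17.6 RPM, and the uninjured value was below the 18.9 RPM of myoblast culture 27. At passage 0 the median of the 82 was 24.2 RPM in culture 26 and 13.8 RPM in culture 27. With 1 library each, the precursor states have no replicate check. Across passages, the sum over all 601 fragments was 0.952 times as high at passage 8 to 10 as at passage 0 in culture 26, and 0.890 times in culture 27. For ORR1 the ratios were 1.02 and 0.805, and for the MERVL fragment 1.11 and 1.81. ORR1 moved in opposite directions in the 2 cultures, and 1 library per culture and passage allows no test.

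Adding up the reads of all copies of a name gave a second view with less counting noise. Of 119 names of any repeat class with 10 or more fragments, 16 begin with the prefixes used here. In myoblasts against ESC, 3 of the 16 were called higher, beside 15.1% of all names. They were MT2B (log2 fold change 1.03, adjusted p = 0.0258), MTEb (0.97, adjusted p = 0.0258) and ORR1D2 (0.87, adjusted p = 0.0409), where the median of all names was 0.41. Without its most read fragment ORR1D2 was at -0.12 (adjusted p = 0.802), so 1 copy carried its call, while MT2B was at 0.75 (adjusted p = 0.0567) and MTEb at 0.83 (adjusted p = 0.0337). At day 4 against ESC only MT2B was called (1.58, adjusted p = 0.0235), beside 5.04% of all names, while 5 of the 16 were called with the replicate number as a block. In muscle against ESC 12 of 16 were called higher, beside 80.7% of all names, MTEb (1.34), MTEa (1.22) and ORR1D2 (1.15) having the smallest p. Without its most read fragment ORR1D2 was at 0.03 there (adjusted p = 0.874). With library totals 2 were called there, and both were lower, MLT1D at -0.56 and MTE2a at -0.45, so the direction of names in this comparison depends on the scaling. In muscle against myoblasts MTEa (0.85, adjusted p = 0.0206) and MTE2b (0.80, adjusted p = 0.0299) were called higher, beside 23.5% of all names, and neither with library totals. No name of the family was called lower there, beside 3.36% of all names. ORR1A2, the only ORR1A name with enough fragments, had a log2 fold change of -0.08 in myoblasts against ESC (adjusted p = 0.872) and 0.60 in muscle against ESC (adjusted p = 0.0113), which was -0.06 without its most read fragment. No name was called at day 4 against myoblasts. These counts of names moved with single libraries. For myoblasts against ESC, 0 names were called without RD1 or without E14Tg2, 5 without CGR8, 1 without culture 21 or 26 and 7 without culture 27. For day 4 against ESC, 0 were called without any of the 3 ESC lines, 3 without culture 21, 2 without culture 26 and 6 without culture 27. For muscle against myoblasts, 0 were called without muscle 1, muscle 2, culture 26 or culture 27, and 7 without culture 21.

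**Figure D5:**
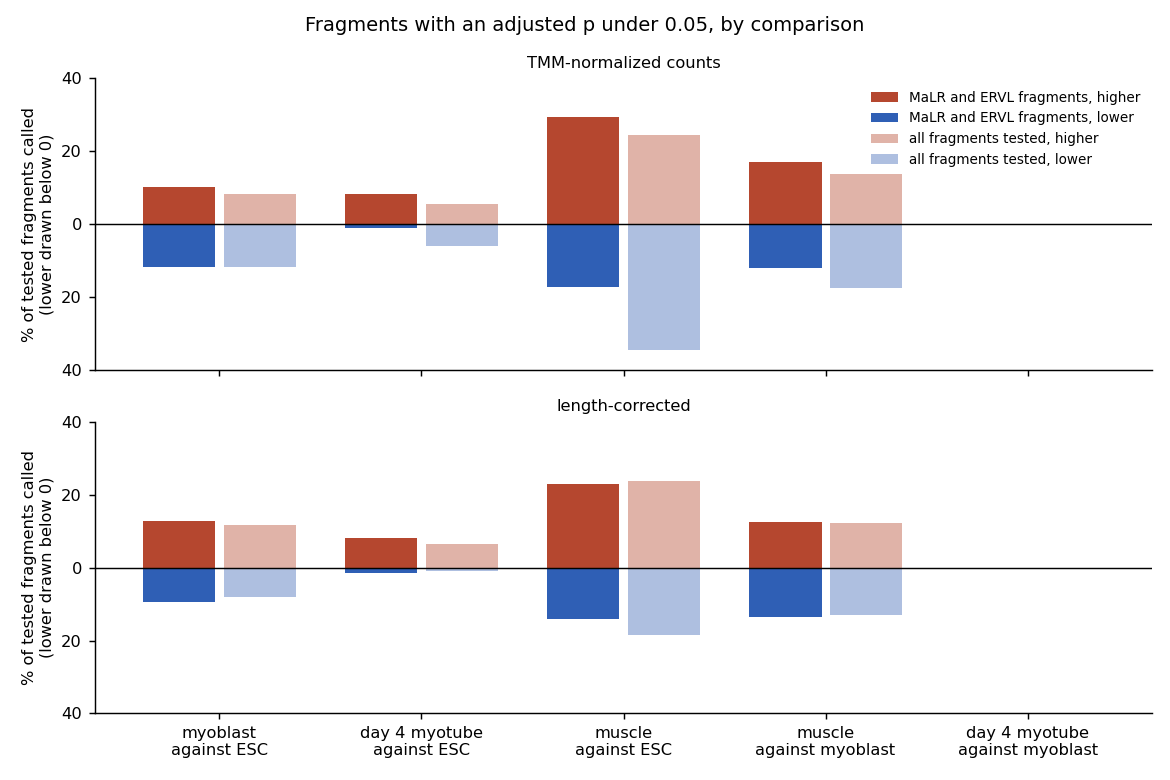
Percent of tested fragments with an adjusted p under 0.05 (higher above 0, lower drawn below 0) in 5 comparisons, for MaLR and ERVL fragments beside all fragments tested, with TMM scaling in the upper panel and the length-corrected fit in the lower. In muscle against ESC 17.3% of the MaLR and ERVL fragments and 34.6% of all fragments were lower with TMM, while fragments under the same criteria, not drawn in the upper panel, had 19.4%, and with length corrected the shares were 14.02% and 18.5%.

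The background of all fragments includes islands and longer and shorter fragments than those kept, and the length-corrected fit was run under the same position, length and island criteria as the family. In that fit 63 fragments were called higher and 47 lower in myoblasts against ESC, of 495 tested, beside 11.7% and 8% of all, and by prefix 15 higher and 2 lower for ORR1, 42 and 33 for MT, and 6 and 12 for MLT. The lean of ORR1 to higher and of MLT to lower calls thus had the same direction in both fits, and no test of a difference between prefixes was run. LTR fragments outside this family and IAP leaned to higher calls in that fit too, with 14.8% higher and 4.81% lower. LINE fragments had 16.6% and 5.58%. IAP fragments, which have few unique ends, were higher in 44 and lower in 3 of 276 for myoblasts against ESC with length corrected. With TMM scaling they were higher in 38 and lower in 8 of 276. For muscle against myoblasts they were higher in 12 and lower in 29 of 279 with length corrected. With TMM scaling 18 were higher and 28 lower. None of the 601 fragments lay within 10000 bp of those genes of the early embryonic programme and silencing factors that GENCODE M1 lists by the names looked up, Zscan4c and Zscan4d among them. For Tcstv1, Tcstv3, Usp17la and Gm5039 no entry was matched and no distance was measured.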

How the data were processed

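DNA methylation was read by AIMS-seq in 23 libraries of 9 groups. The values are raw counts of reads per fragment between neighbouring CCCGGG sites, as deposited, and the labels' protocols name mm9 as the genome build. Per the submitters' processing notes, Bowtie 0.11.3 and DESeq were used. The treatment of reads that match several places is not given in the sources used here. A further 184 per-sample columns were not used. Reads of both CGR8 libraries were added together, giving 3 ESC lines. PCR copies cannot be told from separate molecules, so intervals and floors (3 reads) cover counting error only.

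Counts were tested in R 4.3.3 with the quasi-likelihood method of edgeR 4.0.16 on the libraries of the 2 groups compared, with TMM scaling and filterByExpr (minimum count 10). Tests were 2-sided, and p-values were adjusted by Benjamini-Hochberg across every fragment tested. The alternatives were DESeq2 1.42.0, its size factors, library totals, no filter, the fragments under the same criteria alone, the replicate number as a block, and leaving out each library. The length-corrected fit was added after seeing the data. It takes a lowess (span 0.3) of each library's log level on length as an offset. The edgeR step was tested on simulated counts. Same-numbered day 4 and myoblast libraries, which come from the same cultures by label, deviated together (r = 0.85, 0.70 and 0.63). Same-numbered day 4 and ESC libraries (r = 0.46, 0.29 and 0.27) and muscle and ESC libraries (r = 0.19, 0.14 and 0.12) did so too, although these are different lines and tissues. For myoblast and ESC libraries r was 0.32, 0.12 and 0.03. Same-numbered muscle and myoblast libraries did not deviate together (r = 0.13, -0.23 and -0.40), and differently numbered ones had r from -0.45 to 0.51. Genes came from GENCODE M1 on mm9, and sequences from the mm9 genome, read with pysam 0.24.0. Python 3.11.15 was used with scipy 1.17.1, pandas 2.3.3, matplotlib 3.10.9 and numpy 2.4.6.

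Members and lists were chosen with earlier results of these data known. The 39 fragments named are the 5 with most reads, the called fragment with the smallest adjusted p per prefix, comparison and direction, and per comparison and direction the 4 of largest fold among fragments of at least median level without overlap between libraries. MLT2B3 was named after its values were seen.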

Additional observations from a re-analysis of the deposited data

How the results depend on the processing

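The log2 ratio of the summed reads was near 0 in every comparison and changed sign with small choices. For myoblasts against ESC it was 0.087, with -0.0012 when only reads of fragments that met the position, length and island criteria were the denominator and -0.044 without the 10 most read fragments. For day 4 against ESC it was 0.080, with -0.011 and -0.036 under those choices and -0.0021 to 0.15 when 1 library was left out. For muscle against ESC it was 0.025, with -0.069 under the other denominator and -0.0070 to 0.058 with 1 library left out. For muscle against myoblasts it was -0.062, and 0.092 without the 10 fragments. For day 4 against myoblasts it was -0.0068, with 0.0083 without the 10 fragments and -0.089 to 0.066 with 1 library left out. By prefix, leaving out the most read fragment, a choice made after seeing the data, turned 3 log2 ratios near 0: MT at day 4 against ESC to -0.00096, ORR1 at day 4 against myoblasts to 0.0074 and MLT in muscle against myoblasts to 0.099.

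Calls moved most with the libraries and the scaling. Leaving out 1 library gave 15 to 55 lower fragments for myoblasts against ESC, 36 to 66 higher and 2 to 29 lower for day 4 against ESC, 43 to 95 lower for muscle against ESC, and 0 to 102 higher and 0 to 60 lower for muscle against myoblasts. For the repeat names it gave 0 to 7 calls for myoblasts against ESC, 0 to 6 for day 4 against ESC and 0 to 7 for muscle against myoblasts. Library totals in place of TMM gave 9 lower fragments for day 4 against ESC, 86 higher and 179 lower for muscle against ESC, and 46 higher and 80 lower for muscle against myoblasts, and 0, 2 and 0 called names. They move the median log2 fold change of all fragments to -0.28 for myoblasts against ESC, -0.51 for day 4 against ESC, -1.14 for muscle against ESC and -0.65 for muscle against myoblasts. Without a low-count filter, muscle against myoblasts gave 77 higher and 25 lower, and myoblasts against ESC 61 higher and 43 lower. Without each name's most read fragment, 1, 0 and 6 names were called for myoblasts against ESC, day 4 against ESC and muscle against myoblasts. The replicate number as a block gave 39 higher and 10 lower fragments for muscle against myoblasts, 7 called names for myoblasts against ESC and 5 for day 4 against ESC. With length corrected too, it gave 50 higher and 32 lower for muscle against myoblasts, 19 lower for day 4 against ESC and 1 higher for day 4 against myoblasts. The numbers pair the cultures only by label, and it changed no other count by over 1.5 times. The cause of these moves was not tested. Of the results for single named fragments under all alternatives, 618 kept direction and call, 40 kept direction and lost the call, and none reversed. Most of these fragments were named for a small adjusted p or a large fold in the main fit, which favours keeping both. For muscle against myoblasts, no named fragment was called without muscle 1 or without muscle 2.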
